A study of Mus musculus with 14 samples.

Results

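The 35 genes described here encode proteins that a cell uses to enter mitosis, to attach and separate its chromosomes, and to divide. They were taken by name for their known roles in cell division, and no threshold on a measured value sets membership, although earlier results of these data were known when they were chosen. All 35 were found among the 48363 genes with values, and all 35 had at least 10 normalized counts in 2 or more of 14 libraries and were tested. A normalized count is the number of reads of a gene in a library divided by a factor that scales the libraries to a common depth.

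RNA was sequenced from regulatory T cells (Tregs, CD4+ FOXP3-YFP+), sorted from spleen and peripheral lymph nodes of untreated mice. All mice carried Foxp3 Cre. The cKO group (5 libraries) was miR-15/16 fl/fl, and the WT group (4 libraries) was miR-15/16 wt/wt. The CD25lo (2 libraries) and CD25hi (3 libraries) groups were also miR-15/16 wt/wt, and were gated on surface CD25, the IL-2 receptor alpha chain. The Cre recombinase and YFP, expressed from the Foxp3 locus, were thus present in all 4 groups, and in cKO mice both floxed clusters (miR-15a/16-1 on chromosome 14, miR-15b/16-2 on chromosome 3) are removed only once Foxp3 is on. The submitters describe the libraries as biological replicates, with 2 to 5 libraries in a group. Whether a library came from a single mouse or a pool is not stated. The methods describe age- and sex-matched mice, at a younger or an older age, and which age applies to these libraries is not given in the sources used here.

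The libraries held 30055573 to 35226685 reads in genes. All 9 Treg markers (Foxp3, Ikzf2, Ctla4, Tnfrsf18, Tnfrsf4, Il2rb, Cd4, Cd3e and Trac) were measured in every group. Their summed normalized counts were 235680 to 265845 in cKO and 222121 to 257493 in WT libraries. They were 187890 to 189301 in CD25lo and 226377 to 233970 in CD25hi libraries. The list includes general T cell genes, so the sum is not a measure of Treg purity. Il2ra, which encodes CD25, had 14682 to 15027 normalized counts in CD25lo and 39583 to 41188 in CD25hi Tregs, as the gate sets it. Dleu2, the host transcript of miR-15a/16-1, had 2121 to 2713 in cKO and 86.3 to 1100 in WT Tregs, and Smc4, the host of miR-15b/16-2, had 38804 to 43250 in cKO and 39583 to 41486 in WT Tregs. Xist exceeded the Y-linked Ddx3y in 5 of 5 cKO libraries, 1 of 4 WT libraries (replicate 3), and no CD25lo or CD25hi library. By these transcripts the cKO and WT libraries were not matched for sex, and for most libraries the sex of the mice cannot be told apart from the genotype. WT replicate 4 stood apart from the other WT libraries. It had 272675 normalized counts summed over 22 immediate early genes (694232 to 746252 in the other 3). Over 12 myeloid markers it had 847 (2535 to 5053 in the other 3). It lay within the range of the CD25lo libraries, at 242838 to 280931 and 483 to 1067. The cKO libraries were split too, with immediate early sums of up to 383023 in replicates 1 to 3, against 589582 and 658402 in replicates 4 and 5.

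Mitosis is set off when Cdk1 bound to a B-type cyclin becomes active. Condensins and topoisomerase II then compact and disentangle the chromosomes, kinetochores capture microtubules, and the spindle checkpoint holds back the anaphase-promoting complex (APC/C) until every chromosome is attached. Most genes of this program are transcribed in a wave in G2 and M phase and are silent in resting cells, which is why Mki67 and Top2a serve as markers of cycling cells. In Tregs, as in other T cells, their transcripts are taken to come mostly from the cells that are dividing, which was not tested here. Bulk RNA cannot tell apart fewer cycling cells and less of these transcripts in each cell.

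The transcription wave is known to run through a promoter element called CHR (cell cycle genes homology region), bound by the DREAM and MMB complexes, and through CCAAT boxes, bound by NF-Y. The CHR element (TTTGAA on either strand, that is TTTGAA or TTCAAA) and the CCAAT box (CCAAT or ATTGG, which can share at most 1 end base with a CHR match) were searched from 250 bases before to 50 bases after the start site in RefSeq promoters (GRCm38.p6). A gene with several windows counted once if any held a match. An entry existed for 31 members, and not for Ccna2, Aurkb, Tpx2 and Kif20a. A CHR match was present in 23 of 31 members (74.2%), against 14.5% of 10718 tested genes and 20.2% of all 27025 genes with an entry. A CCAAT match was also present in 23 of 31 (74.2%), against 42.5% of tested genes and 41.1% of all genes. Both were present in 20 members (64.5%), against 6.98% of tested genes. Neither was found for Ncaph, Mad2l1, Nuf2, Birc5 and Nusap1. A match describes these letters only and is not a binding site. The following stretches, with the CHR match nearest to the start site in capitals, come from members that are described one by one further on:
Mki67, chr7:135716460-135716489, minus strand: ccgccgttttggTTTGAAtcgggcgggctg
Top2a, chr11:99024195-99024224, minus strand: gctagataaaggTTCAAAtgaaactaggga
Cdk1, chr10:69352910-69352939, minus strand: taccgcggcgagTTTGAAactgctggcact
Aurka, chr2:172370521-172370550, minus strand: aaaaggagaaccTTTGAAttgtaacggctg
Cenpa, chr5:30666890-30666919, plus strand: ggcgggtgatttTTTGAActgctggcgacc
Kif23, chr9:61946780-61946809, minus strand: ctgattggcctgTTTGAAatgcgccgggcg

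**Figure D1:**
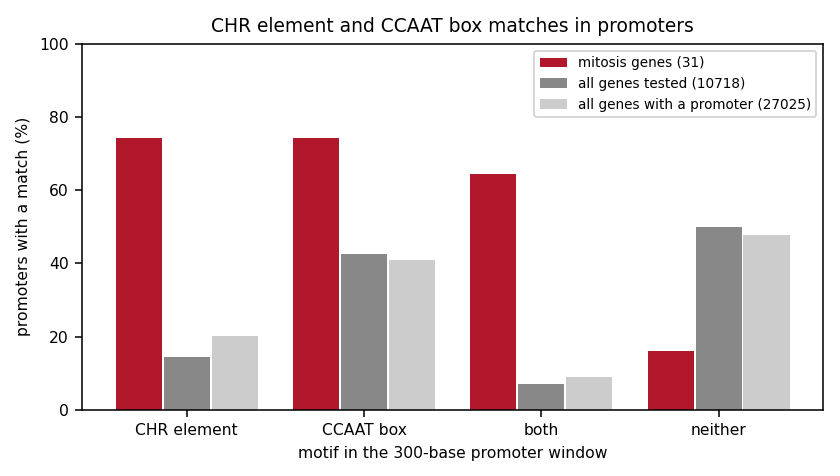
Percent of promoter windows (y axis) with a CHR element, a CCAAT box, both or neither, for the 31 mitosis genes with an entry, all genes tested and all genes with an entry. The CHR element was found in 74.2% of the mitosis genes and in 14.5% of the genes tested.

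The deleted miRNAs share one seed, bases 2 to 8, shown in capitals in the RefSeq mature sequences (GRCm38.p6):
miR-15a-5p (chromosome 14): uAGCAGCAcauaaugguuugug
miR-15b-5p (chromosome 3): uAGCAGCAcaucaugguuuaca
miR-16-5p (chromosomes 14 and 3): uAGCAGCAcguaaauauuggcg
A match to this seed, either TGCTGCT (pairing with bases 2 to 8) or GCTGCTA (bases 2 to 7 with an A after them) or both at once, was present in the longest annotated 3′ UTR (GENCODE, GRCm38) of 7 of 35 members, against 30.5% of 12831 tested genes with a 3′ UTR. The 7 were Ncaph, Cdk1, Aurka, Mad2l1, Birc5, Nusap1 and Kif23, with 11 matches in all, of which 4 lay in Cdk1. The Cdk1 matches that start at bases 1233 and 1236 of its 3′ UTR overlap and were counted separately. Kif23, a kinesin of the central spindle, held the only 8-base match, which starts at base 195 of a 3′ UTR of 387 bases:
Kif23, chromosome 9: aaacaaacaaaTGCTGCTAttgattagctg
The median log2 fold change of cKO over WT Tregs was 0.27 for the 7 members with a match and 0.08 for the 28 without, and 4 of 7 and 16 of 28 lay above 0.

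Levels per length were taken over the merged exons of all annotated transcripts of a gene. By this measure Mki67, whose protein coats mitotic chromosomes, was the highest member, at a mean of 698 normalized counts per kilobase over the 14 libraries. Top2a (topoisomerase II alpha) had 423, the centromeric histone Cenpa 379, and the condensin subunit Smc2 293 normalized counts per kilobase. The merged exons of Mki67 were 10061 bases, the same as its longest transcript. They were 9013 bases in Top2a and 5860 in Cenpa, against longest transcripts of 5221 and 1466 bases. The order of these genes thus depends on the length used. At the other end were Ttk, a spindle checkpoint kinase, at 20.5, Anln, a scaffold of the contractile ring, at 12.9, and Ccnb1 at 9.67 per kilobase. Ccnb1 encodes cyclin B1, and 42.1% of the 50-base stretches of its longest transcript also occur in other annotated genes, 34.1% in the processed pseudogene Ccnb1-ps, so its reads may have been split by the counting. Shared or overlapping transcript sequence also reached over 10% for Kif20a (31.2%, with Cdc23), Prc1 (26.6%), Ncapg (18.5%, with Lcorl), Kif4 (16.2%), Ccna2 (15.9%, with Exosc9), Cdc20 (11.6%) and Plk1, and their values are less certain. The 35 genes together took 682 to 1331 reads per 1000000 reads in genes in cKO libraries, 692 to 947 in WT, 581 to 840 in CD25lo and 705 to 1109 in CD25hi libraries.

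The clearest pattern was within groups. In cKO Tregs, replicates 4 and 5 both lay above replicates 1, 2 and 3 for 33 of 35 members, an order that 16.1% of all tested genes showed. The exceptions were Mad2l1 and Cenpa. In replicate 4, 35 of 35 members lay above their cKO mean, and in replicate 2 none did, whereas 51.1% and 47.9% of all tested genes lay above it in those libraries. The summed members had 24687, 21542, 26723, 39752 and 42842 normalized counts in cKO replicates 1 to 5. In WT Tregs the sums were 29681, 31072, 27678 and 21754, and replicate 4 was the lowest WT library for 25 of 35 members (26.2% of tested genes). The CD25lo libraries had 18622 and 26404, with replicate 1 below replicate 2 for 31 members (43.5% of tested genes). The CD25hi libraries had 24541, 22463 and 34398, and replicate 3 was the highest for 26 members (30.9% of tested genes).

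**Figure D2:**
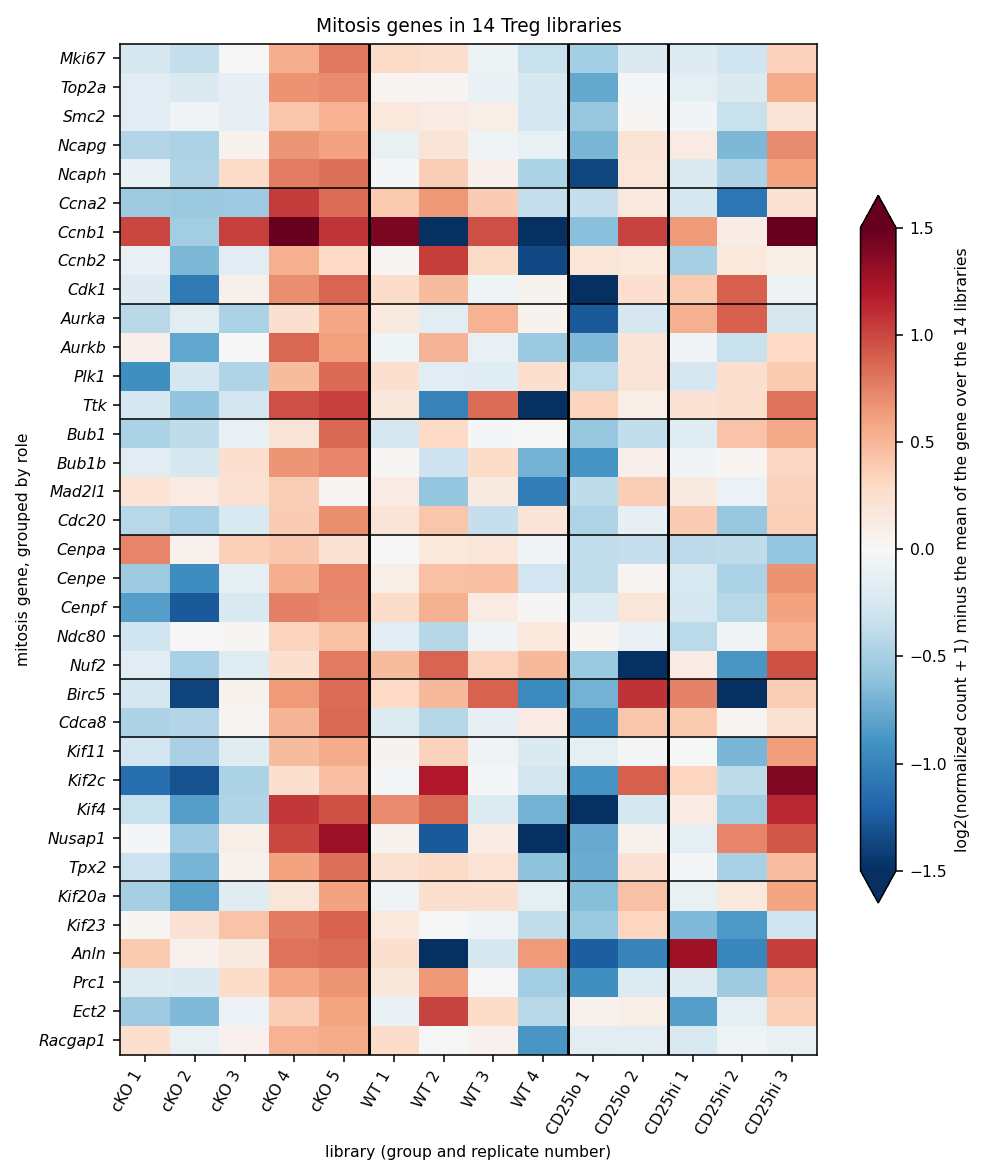
Level of the 35 mitosis genes (rows, grouped by role) in the 14 libraries (columns, cKO, WT, CD25lo, CD25hi), as log2(normalized count + 1) minus the mean of each gene over the 14 libraries. Columns cKO 4, cKO 5 and CD25hi 3 are red (above the mean) for 35, 35 and 30 genes, and cKO 1, cKO 2, WT 4 and CD25lo 1 for only 7, 4, 10 and 4.

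The spread of the members between libraries of one group was wider than that of all tested genes in 3 of the groups, and wider than that of tested genes of like level in all 4. Their median SD on the log2 scale was 0.55 in cKO libraries, against 0.24 over all tested genes and 0.16 over the 7576 tested genes of like level (within the central 90% of the members' levels). In WT libraries it was 0.35, the same as over all tested genes and above the 0.27 of genes of like level. It was 0.52 in CD25lo libraries, against 0.19 over all tested genes and 0.22 at like level, and 0.49 in CD25hi libraries, against 0.28 and 0.24. The SD of 34 of 35 members in cKO Tregs exceeded the median of all tested genes.

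Other lists moved with the members from library to library. The mean log2 level of 38 DNA replication genes was 9.51, 9.46, 9.62, 9.82 and 9.94 in cKO replicates 1 to 5, where the mitosis genes averaged 8.50, 8.24, 8.70, 9.33 and 9.43. Immediate early genes, which T cells switch on within minutes of stimulation or handling, averaged 12.35, 12.51, 12.82, 13.28 and 13.59 in the same libraries. In WT replicates 1 to 4 the mitosis genes averaged 8.88, 8.74, 8.86 and 8.22, and the immediate early genes 13.65, 13.37, 13.62 and 11.81. The 8 tested myeloid markers averaged 4.68, 3.36, 4.53, 6.94 and 6.09 in cKO replicates 1 to 5. In WT replicates 1 to 4 their averages were 7.32, 7.21, 7.25 and 3.38. All 12 myeloid markers together had 328 to 3078 normalized counts in cKO and 847 to 5053 in WT libraries. These sums were 483 to 1067 in CD25lo and 268 to 654 in CD25hi libraries, with Elane at 0 in all 14. The 6 tested B cell markers averaged 5.56, 5.30, 5.35, 5.84 and 5.96 in cKO replicates 1 to 5. In WT replicates 1 to 4 their averages were 6.11, 5.57, 6.12 and 4.28. By these averages WT replicates 1 and 3 lay above every cKO library, unlike by the sums. Summed over 8 B cell markers, every cKO library (994 to 1314 normalized counts) lay above every WT library (536 to 969), with 594 to 741 in CD25lo and 455 to 693 in CD25hi libraries, and none of the 8 was at 0 in all libraries. The order did not carry over to the CD25-sorted libraries for the immediate early genes, which averaged 12.14 and 11.64 in CD25lo replicates 1 and 2 and 11.87, 11.64 and 11.79 in CD25hi replicates 1 to 3. The mitosis genes averaged 8.09 and 8.77 in CD25lo and 8.73, 8.47 and 9.19 in CD25hi libraries, and the myeloid markers, in the same order, 3.22 and 5.06 in CD25lo and 3.21, 1.83 and 4.59 in CD25hi libraries. The part of the immediate early genes, the myeloid and B cells and the sex of the mice in the levels of the mitosis genes was not tested, beyond the fits with a term for immediate early level or sex given with the comparisons.

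**Figure D3:**
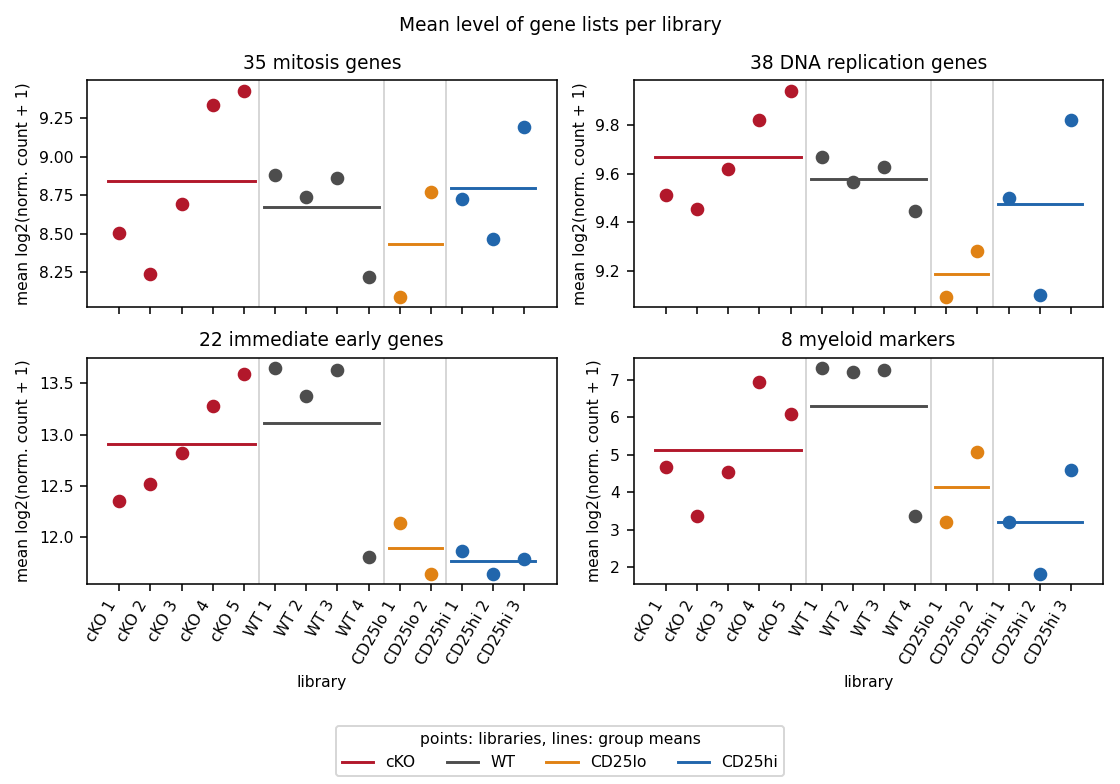
Mean log2(normalized count + 1) of 4 gene lists (panels) in each library (points), with the mean of each group as a line. In the 9 cKO and WT libraries, WT 4 is the lowest of the WT libraries in all 4 panels, and cKO 4 and cKO 5 are the highest of the cKO libraries in all 4.

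The comparison of cKO with WT Tregs asks whether Tregs without miR-15/16 carry more or less transcript of the mitotic program. None of the 35 members passed the test (adjusted p under 0.05 over 16241 genes, limma), where 3.52% of all tested genes did. At an unadjusted p under 0.05 there were 5 members, Ccnb1, Mad2l1, Cenpa, Nusap1 and Kif23 (14.3%), against 16.1% of all tested genes. The count was also 0 with edgeR and with DESeq2, each with 3 members at an unadjusted p under 0.05. The smallest adjusted p was 0.183 in limma. The median log2 fold change of the members was 0.09, against 0.05 over all tested genes, and 20 of 35 lay above 0 (56.9% of all tested genes). No member had groups that did not overlap, in either direction (4.92% of tested genes higher, 3.62% lower). Single libraries moved the median fold change of the members both ways. It was -0.04 without cKO replicate 4, -0.05 without cKO replicate 5 and -0.01 without WT replicate 4, and 0.17 without cKO replicate 1, 0.24 without cKO replicate 2 and 0.15 without WT replicate 2. Without WT replicate 4 no member passed either, and none had an unadjusted p under 0.05 (smallest adjusted p = 0.309, limma). The 95% interval of the fold change lay wholly within a 2-fold change in either direction for 24 members (54.6% of all tested genes), and that of the other 11 reached beyond it. With the immediate early gene level of each library as a term, a fit added after the data were seen, Nusap1 and Racgap1 passed the test as higher in cKO Tregs (smallest adjusted p = 0.0194, limma). These were 5.7% of the members, close to the 5.38% of all tested genes that passed in that fit. With sex as a term, which sets the cKO libraries against WT replicate 3 alone, no member passed, none had an unadjusted p under 0.05 (smallest adjusted p = 0.912, limma), and 22 of 16241 genes were called.

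**Figure D4:**
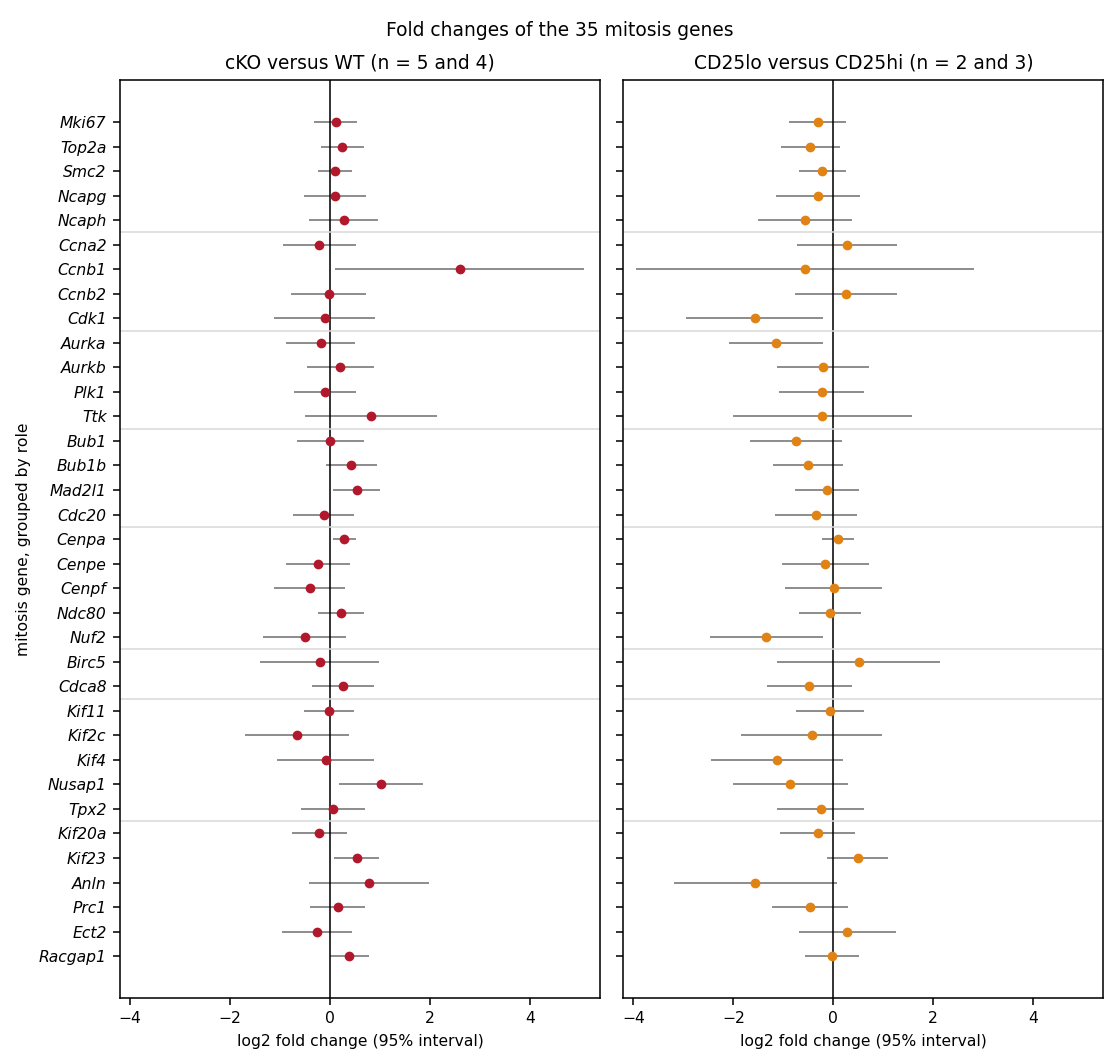
Log2 fold change of each mitosis gene with its 95% interval, for cKO versus WT Tregs (left, 5 and 4 libraries) and CD25lo versus CD25hi Tregs (right, 2 and 3 libraries). The points lie on both sides of 0 on the left (20 above) and mostly below 0 on the right (28 of 35), and no member passed the test in either panel.

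Among the genes of chromosome structure, Mki67 (chromosome 7, 135689784 to 135716361) had 5727, 5307, 6766, 9885 and 11751 normalized counts in cKO replicates 1 to 5, against 8240, 8152, 6426 and 5394 in WT replicates 1 to 4. The cKO libraries lay on both sides of the WT range. cKO Tregs averaged 7887 ± 2810 (SD, n = 5) and WT Tregs 7053 ± 1390 (SD, n = 4), which gave a log2 fold change of 0.11 (95% interval -0.31 to 0.54, adjusted p = 0.847, limma). Top2a (chromosome 11, 98992943 to 99024189) had 3302, 3149, 3377, 5861 and 5995 in cKO and 3778, 3727, 3417 and 3111 in WT Tregs. Here cKO replicates 1 to 3 fell inside the WT range and replicates 4 and 5 above it, and the log2 fold change was 0.25 (95% interval -0.18 to 0.68, adjusted p = 0.609, limma). The condensin subunits Smc2, Ncapg and Ncaph had log2 fold changes of 0.09, 0.10 and 0.27.

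Cdk1 (chromosome 10, 69335146 to 69352938), the kinase that starts mitosis, had 181.6, 98.6, 219.0, 336.1 and 379.7 normalized counts in cKO against 250.9, 288.3, 198.2 and 215.8 in WT Tregs. The highest and the lowest values of the 9 libraries were both cKO libraries, and the log2 fold change was -0.11 (95% interval -1.12 to 0.90, adjusted p = 0.949, limma). Its sign depended on the method, at 0.04 with edgeR and 0.03 with DESeq2. The cyclin genes Ccna2 and Ccnb2 had log2 fold changes of -0.22 and -0.03. Ccnb1 had 50.1, 16.7, 50.6, 82.0 and 52.3 in cKO Tregs, against 66.6, 0, 48.8 and 0 in WT Tregs. Its fitted log2 fold change of 2.60 (95% interval 0.11 to 5.08, adjusted p = 0.286, limma) rests on the 2 WT libraries without a read and depends on the pseudocount.

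Of the mitotic kinases, Aurka (Aurora A, chromosome 2, 172356190 to 172370535), which matures the centrosomes, had 160.8, 189.7, 153.8, 254.0 and 321.2 normalized counts in cKO and 236.4, 191.1, 307.0 and 222.0 in WT Tregs, with a log2 fold change of -0.18 (95% interval -0.88 to 0.51), or -0.56 with sex as a term. Aurkb, the kinase of the chromosomal passenger complex, Plk1 (Polo-like kinase 1) and Ttk had log2 fold changes of 0.21, -0.10 and 0.82. Cdca8 (borealin, chromosome 4, 124918465 to 124939311), a partner of Aurkb in that complex, had 274.3, 279.9, 391.3, 542.1 and 683.1 in cKO and 328.0, 280.7, 348.7 and 414.2 in WT Tregs, again with cKO libraries on both sides of the WT range (log2 fold change 0.26, 95% interval -0.36 to 0.88). Its partner Birc5 (survivin) had a log2 fold change of -0.21 with an interval of -1.41 to 0.99.

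Mad2l1 (Mad2, chromosome 6, 66535390 to 66547220), the checkpoint protein that binds Cdc20, differed from most members in its small spread in cKO Tregs. It had 656.5, 618.5, 669.6, 737.1 and 584.8 normalized counts in cKO and 618.5, 380.0, 625.2 and 277.5 in WT Tregs. WT replicates 2 and 4 were low and the other 2 lay within the cKO range, for a log2 fold change of 0.53 (95% interval 0.06 to 1.01, adjusted p = 0.237, limma). It was 0.30 without WT replicate 4 and 0.059 with sex as a term. The other checkpoint and APC/C genes Bub1, Bub1b and Cdc20 (the APC/C activator) had log2 fold changes of 0.01, 0.43 and -0.13.

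Cenpa (chromosome 5, 30666777 to 30674830) had the smallest unadjusted p of the members in this comparison. It had 3591, 2256, 2751, 2855 and 2510 normalized counts in cKO and 2140, 2410, 2442 and 2071 in WT Tregs. All cKO libraries except replicate 2 exceeded every WT library. Its order among the cKO libraries was not that of the other members. The means were 2792 ± 503 (SD, n = 5) and 2266 ± 188 (SD, n = 4), a log2 fold change of 0.29 (95% interval 0.06 to 0.52, adjusted p = 0.183, limma), or 0.18 with sex as a term. The kinetochore genes Cenpe, Cenpf, Ndc80 and Nuf2 had log2 fold changes of -0.24, -0.40, 0.22 and -0.51.

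Nusap1 (chromosome 2, 119618298 to 119651244), which bundles spindle microtubules, had 362.3, 250.2, 390.3, 736.1 and 890.2 normalized counts in cKO and 380.1, 152.9, 395.4 and 125.4 in WT Tregs. Both cKO replicates 4 and 5 exceeded every WT library, and the log2 fold change was 1.02 (95% interval 0.17 to 1.87, adjusted p = 0.202, limma). It was 1.19 with immediate early level as a term but 0.25 with sex as a term (adjusted p = 0.999, limma), and 0.73 to 1.28 when single libraries were left out. The kinesins Kif11, Kif2c and Kif4 and the spindle assembly factor Tpx2 had log2 fold changes of -0.01, -0.66, -0.09 and 0.06.

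Kif23 (chromosome 9, 61915905 to 61946774), needed for cytokinesis, had 609.2, 699.4, 805.9, 1028 and 1111 normalized counts in cKO and 669.5, 597.3, 577.4 and 463.5 in WT Tregs. Of the cKO libraries, 4 exceeded every WT library. The means were 851 ± 214 (SD, n = 5) and 577 ± 85.3 (SD, n = 4), for a log2 fold change of 0.54 (95% interval 0.09 to 0.98, adjusted p = 0.205, limma), which stayed between 0.43 and 0.65 over all alternatives. Its partner Racgap1 had a log2 fold change of 0.39 (95% interval -0.01 to 0.78), and Kif20a, Anln, Prc1 and Ect2 had -0.21, 0.78, 0.15 and -0.26.

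**Figure D5:**
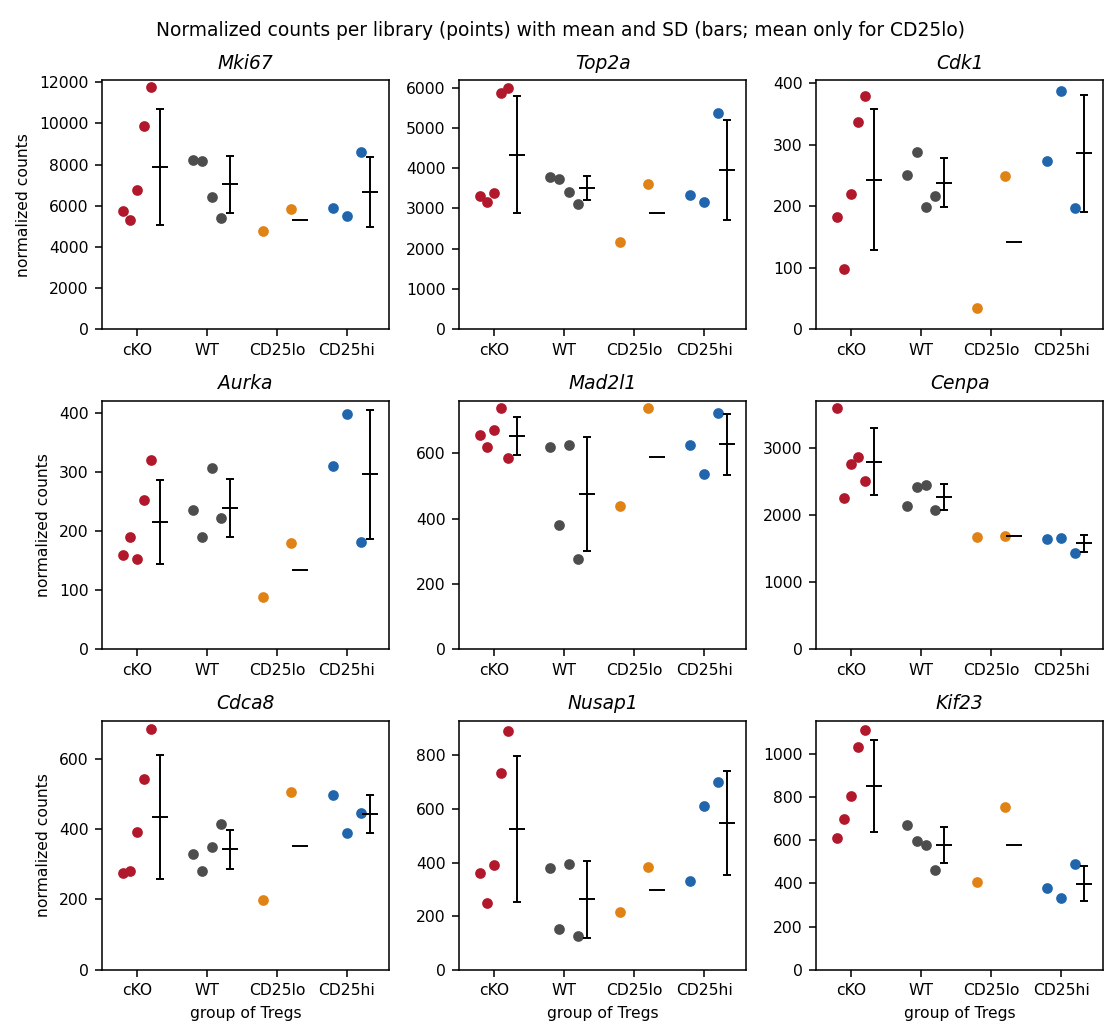
Normalized counts of 9 mitosis genes (panels) in each library (points) by group of Tregs, with the mean and SD beside them (mean alone for the 2 CD25lo libraries). Mki67, Top2a, Cdk1, Cdca8 and Nusap1 have 2 cKO libraries above every WT library. Cenpa, Mad2l1 and Kif23 have more than 2, and Aurka has fewer. Cenpa and Mad2l1 do not follow the order of the other members among the cKO libraries.

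The comparison of CD25lo with CD25hi Tregs describes the same program in Tregs with natural differences in CD25. Again none of the 35 members passed the test (1.62% of all tested genes did, limma), with edgeR and DESeq2 also at 0. At an unadjusted p under 0.05 there were 3 members, Cdk1, Aurka and Nuf2, in limma and 3 in each other tool (13.5% of all tested genes in limma). The smallest adjusted p was 0.247. The median log2 fold change of the members was -0.30, against 0.00 over all tested genes, and 7 of 35 lay above 0 (49.4% of all tested genes) and 28 below. The median was 0.06 without CD25lo replicate 1, -0.62 without CD25lo replicate 2 and -0.09 without CD25hi replicate 3, so each of these 3 libraries moved it widely. All members of chromosome structure, the mitotic kinases, the checkpoint and the spindle lay below 0. The 95% interval lay within a 2-fold change for only 8 of 35 members (47.8% of all tested genes).

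Cdk1 had the lowest fold change in limma, with 33.6 and 248.3 normalized counts in CD25lo replicates 1 and 2, against 273.9, 387.1 and 197.2 in CD25hi replicates 1 to 3. Replicate 1 was far below every other library and replicate 2 was inside the CD25hi range. The log2 fold change was -1.57 (95% interval -2.95 to -0.20, adjusted p = 0.284, limma), and it rested on CD25lo replicate 1. Without that library it was -0.15 (adjusted p = 0.956, limma), and without CD25lo replicate 2 it was -3.00 (adjusted p = 0.0436, limma, range over the alternatives 0.0436 to 0.956), the only member called where 0.565% of all tested genes were. With edgeR and DESeq2 Cdk1 was at -1.03 and -1.02, less far below 0 than Aurka (-1.15 in both). Aurka had 89.1 and 179.6 in CD25lo against 310.5, 398.3 and 181.7 in CD25hi Tregs, with a log2 fold change of -1.15 (95% interval -2.09 to -0.21, adjusted p = 0.247, limma). It was 1 of 3 members, with Bub1 and Anln, whose CD25lo libraries lay below all CD25hi libraries (11.6% of all tested genes), and Ccnb2 and Cenpa lay above them (12.9% of all tested genes). Nuf2, a subunit of the Ndc80 complex, had 130.0 and 47.4 in CD25lo against 208.3, 103.9 and 371.1 in CD25hi Tregs (log2 fold change -1.34, 95% interval -2.47 to -0.21).

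Mki67 had 4753 and 5832 normalized counts in CD25lo against 5912, 5510 and 8614 in CD25hi Tregs, with a log2 fold change of -0.31 (95% interval -0.89 to 0.26). Top2a had 2161 and 3609 against 3333, 3160 and 5384 (log2 fold change -0.46, 95% interval -1.04 to 0.12). In both genes CD25lo replicate 1 was the lowest and CD25hi replicate 3 the highest of the 5 libraries, and the groups overlapped. Nusap1 had 216.4 and 382.5 in CD25lo against 332.1, 611.1 and 701.7 in CD25hi Tregs, for a log2 fold change of -0.86 (95% interval -2.01 to 0.30).

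Cenpa was nearly level, with 1670 and 1694 normalized counts in CD25lo against 1641, 1655 and 1437 in CD25hi Tregs (log2 fold change 0.10, 95% interval -0.22 to 0.41). Kif23 had 406.4 and 751.9 in CD25lo against 379.0, 330.0 and 487.1 in CD25hi Tregs (log2 fold change 0.49, 95% interval -0.12 to 1.10). Mad2l1 (438.3 and 737.8 in CD25lo, 623.9, 535.8 and 722.0 in CD25hi) and Cdca8 (198.2 and 505.6 in CD25lo, 497.2, 389.1 and 444.6 in CD25hi) had their low and their high library both in the CD25lo group. Their log2 fold changes were -0.13 and -0.48, and both turned positive without CD25lo replicate 1.

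The difference between the 2 effects, cKO over WT minus CD25lo over CD25hi, was tested in the same fit. None of the 35 members passed (1.03% of all tested genes did, limma), and none with edgeR or DESeq2, which had 4 and 3 members at an unadjusted p under 0.05. In limma there were 3 (Bub1b, Nusap1 and Anln, 13.8% of all tested genes), with a smallest adjusted p of 0.213. The median difference was 0.41 on the log2 scale, against 0.05 over all tested genes, and 28 of 35 lay above 0 (54.0% of all tested genes). The CD25lo over CD25hi effect that enters it had a median of -0.30, or 0.06 without CD25lo replicate 1. The median difference was not computed with single libraries left out. With the immediate early level as a term, Nusap1 passed (adjusted p = 0.0399, limma), which is 2.9% of the members against 2.62% of all tested genes in that fit. With sex as a term none passed (smallest adjusted p = 0.672, limma).

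A further list of 85 mitosis genes, of which 80 were tested, gave 0 called genes in each comparison, with a median log2 fold change of 0.11 for cKO over WT and -0.13 for CD25lo over CD25hi. Of 38 DNA replication genes, none was called between cKO and WT (median 0.07), and 1 fell in CD25lo Tregs (median -0.42). This was Mcm10, which origins of replication need to fire, with 44.6 to 65.6 normalized counts in CD25lo against 163.2 to 360.5 in CD25hi Tregs (log2 fold change -2.28, adjusted p = 0.0263, limma). Of 14 regulators of mitotic transcription, Rbl2 rose in cKO Tregs, with 9543 to 10397 normalized counts against 5780 to 8550 in WT Tregs (log2 fold change 0.41, adjusted p = 0.0119, limma). Rbl2 encodes p130, the pocket protein of the DREAM complex that represses genes with a CHR element in resting cells. For Rbl2 and the genes called between cKO and WT Tregs below, genotype and sex cannot be told apart in most libraries. Their values with sex as a term are not given here. Tfdp1, the dimer partner of E2F factors, fell in CD25lo Tregs, with 702.4 to 786.5 against 1122 to 1407 in CD25hi Tregs (log2 fold change -0.77, adjusted p = 0.0172, limma). Of the 22 immediate early genes, Myc and Dusp2 fell in cKO Tregs and Myc and Nr4a3 in CD25lo Tregs, and Myc, a driver of cell growth, had 4146 to 5167 normalized counts in cKO and 6230 to 7580 in WT Tregs (log2 fold change -0.54, adjusted p = 7.58e-04, limma).

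Of the 9 Treg markers, Ikzf2 (Helios) rose in cKO Tregs, with 32845 to 37116 normalized counts against 27600 to 32005 in WT Tregs (log2 fold change 0.25, adjusted p = 0.0205, limma). In CD25lo Tregs 5 of the 9 fell, among them Il2rb, Tnfrsf4, Foxp3 and Ikzf2, with log2 fold changes of -0.95, -0.85, -0.57 and -0.36. No gene of the B cell, plasma cell, myeloid, erythroid or CD8 and NK lists was called in either comparison (limma).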

How the data were processed

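Per the labels and methods, the authors sequenced total RNA with single-end reads and aligned it to GRCm38 with STAR 2.7.2b. The deposited signal of a gene is its read number after division by the library's size factor (DESeq2 1.24.0), rounded to 0.1. The authors' variance-stabilized log2 values, their fold changes (as log2 and as a ratio), their p-values and the deposited GC percent were not used. Groups came from the labels.

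Multiplying the signal by the size factor gave whole reads for at least 99.992% of values in every library (within 0.055 normalized counts). The main test was limma-trend (limma 3.58.1, R 4.3.3) on log2(normalized count + 1), with 4 group means over 14 libraries. It used a floor of 10 normalized counts in 2 or more libraries, and Benjamini-Hochberg adjustment over 16241 genes. The added 1 shrinks changes of low genes, but on this scale single libraries at 0 can widen them, as for Ccnb1. edgeR 4.0.16 and DESeq2 1.42.0 on the recovered reads were alternatives. So were 2 other filters, a pseudocount of 0.5 or 5, a fit to the compared groups alone, a block for the replicate number, a term for sex or for immediate early level, and leaving out each library. The fits were also run on simulated data with known changes, and the share of these recovered is not reported here. The promoter stretch of 1 member described with values per library is not reported here. The members and lists were chosen with earlier results of these data known. Values per library are given for Mki67, Top2a and Cdk1 and, in each role group, for the member with the smallest p, and up to 4 called genes of each other list by adjusted p. Ccnb1 and Nuf2 were added after their values were seen. Tables were handled with python 3.11.15 (numpy 2.4.6, pandas 2.3.3).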

Additional observations from a re-analysis of the deposited data

Results flagged for a closer look

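In each cKO and WT group the highest and lowest library of every member was compared with the rest of its group, 70 groups in all, and chance flags about 1 in 20 of them. In 3 cases, all in WT Tregs, 1 library lay apart by Dixon's test. Ncapg was high in WT replicate 2, at 502.3 normalized counts against 408.0 to 419.8 in the other WT libraries. Kif2c was high in the same library, at 395.3 against 141.8 to 168.7. Tpx2 was low in WT replicate 4, at 323.7 against 565.2 to 598.4. The cKO libraries gave no such case.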

How the results depend on the processing

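The count of mitosis genes called was 0 in 70 of 73 alternative fits of the 3 tests. It was 2 for cKO over WT (Nusap1, log2 fold change 1.19, adjusted p = 0.0372, and Racgap1) and 1 for the difference (Nusap1) with a term for immediate early gene level, and leaving out single libraries gave 0 to 1 for CD25lo over CD25hi (1, Cdk1, without CD25lo replicate 2). No reversal below involved a called gene. For cKO over WT, Cdk1 turned to 0.0363 with edgeR and TMM, 0.0276 with edgeR and DESeq2 size factors, 0.0279 with DESeq2 and 0.142 with sex as a term, and ranged over -0.306 to 0.178 when single libraries were left out. Mki67 ranged over -0.0489 to 0.238 in the same way. For CD25lo over CD25hi without single libraries, Mad2l1 ranged over -0.506 to 0.245 and Cdca8 over -1.15 to 0.195. The cause was not tested. Same-numbered libraries did not deviate together (correlations -0.111 to 0.045 over 6 pairs), so the replicate block is given here only. The 2 CD25lo libraries deviate from their mean in exactly opposite ways. Their correlations therefore cannot show whether CD25lo and CD25hi libraries came from the same mice, which is not given in the sources used here. With the replicate block, where cKO replicate 5 has no partner and drops out, 0 members were called, Mki67 was at -0.0489, and the median of the members was -0.05 for cKO over WT and -0.18 for CD25lo over CD25hi.

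Counts over all tested genes moved more. For cKO over WT (572 as reported) they were 1049 with DESeq2, 873 with immediate early level, 290 with the replicate block and 22 with sex, which sets cKO against WT replicate 3, the only female WT library. For CD25lo over CD25hi (263) they were 806, 439 and 105 in the first 3 of these and 160 with only the groups compared. For the difference (168) they were 703, 425, 25 and 21, with 83 without a filter and 263 with a mean of at least 100 normalized counts. Leaving out single libraries gave 349 to 666, 91 to 377 and 65 to 218. With 2 CD25lo libraries, the 95% interval reached beyond a 2-fold change for most members, and where 1 CD25lo library was left out the other was assumed to vary like the other groups. Intervals are for the difference between group means, with the spread between libraries estimated jointly over the 4 groups. They do not span the values of single libraries.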
